A study of Mus musculus with 8 samples.

Results

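The genes that make, break down and first respond to cyclic AMP were examined in neonatal mouse cardiomyocytes (NCMs). They were taken by name from the count table as every adenylate cyclase (Adcy followed by a number), every cyclic nucleotide phosphodiesterase (Pde followed by a number and 1 letter) and the 6 subunit genes of protein kinase A (PKA). This gave 40 of the 27179 genes, made up of 10 adenylate cyclases, 24 phosphodiesterases and 6 PKA subunits. The rule uses names alone and no measured value.

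The question of the study was whether in utero exposure to diesel exhaust alters transcription in the newborn heart. C57Bl/6J dams breathed filtered air (FA) or diesel exhaust (DE) from E0.5 to E17.5 (embryonic days). RNA was taken from NCMs of male pups at postnatal day 0, with 1 heart per library, giving 4 FA libraries (replicates 2, 3, 4 and 6) and 4 DE libraries (replicates 1, 3, 5 and 7). The hearts had been trimmed of atrial and vascular tissue and the cells pre-plated to remove fibroblasts, and it is not given which pups shared a dam, so the p-values measure the spread between these 8 pups. DE replicates 3 and 5 carry the number 12 in their sample names where the other 6 libraries carry 11, and the labels do not say what that number means.

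Totals ran from 17943024 to 39839737 counts per library. Levels are given as CPM, counts scaled to the size of the library with TMM factors, and a gene was called where the adjusted p was 0.05 or less and the difference at least 25%. Cardiomyocyte markers dominated every library (summed level of 9 markers between 57990 and 65210 CPM in FA and between 46020 and 54620 CPM in DE), all 9 were lower in DE, and Myh6 and Pln were called. All 8 fibroblast markers were higher in DE, with Col1a1 and Dcn called and a sum of 2008 to 3461 CPM in FA against 3655 to 6177 CPM in DE. In bulk RNA, fewer cells of a type and less RNA per cell cannot be told apart, and the part that cell mixture had in the values below was not tested.

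Cyclic AMP carries the adrenergic signal in the heart. Receptors coupled to stimulatory G protein switch on adenylate cyclases in the membrane, which make cyclic AMP from ATP, while phosphodiesterases hydrolyse cyclic AMP or cyclic GMP and so set how far and how long the signal spreads. Cyclic AMP binds the regulatory subunits of PKA and frees its catalytic subunits, which phosphorylate calcium channels, phospholamban and sarcomere proteins to strengthen and speed the beat, and the transcription factor CREB in the nucleus.

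None of the 40 genes was called different between DE and FA. The filter on low counts left 32 of them to test, and 0 of 32 were called by edgeR's quasi-likelihood test, where 868 of 14966 genes (5.8%) were called in all, 332 lower in DE (2.22%) and 536 higher (3.58%). DESeq2 and edgeR's likelihood ratio test each called 2 of them, Prkar2b and Adcy9, and limma-voom called 0, where these tests called 10.9%, 10.7% and 5.75% of all tested genes. At an unadjusted p under 0.05, 7 of the 32 passed (21.9%), against 25.6% of all tested genes. These were Adcy2, Adcy3, Pde1a, Prkar1b and Prkar2b, higher in DE, and Adcy9 and Pde7b, lower in DE.

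The differences were small for the genes with high counts. Of the 32 genes, 18 had a log2 fold change above 0 and 14 below it, with a median of 0.02 (0.00 over all tested genes). The median size of the log2 fold change, without its sign, was 0.16 against 0.20 over all tested genes. In the 10 genes whose FA mean reached 50 CPM (Adcy5, Adcy6, Pde1c, Pde2a, Pde4b, Pde4d, Prkaca, Prkacb, Prkar1a and Prkar2a), the largest was 0.29, in Prkar2a. The 95% interval lay wholly inside the 25% threshold for 3 of the 32 genes, within 1.5-fold for 18 and within 2-fold for 26, so 14 of the 32 had an interval reaching beyond 1.5-fold. Over all tested genes the shares were 13.2%, 54.0% and 84.8%. FA and DE libraries failed to overlap in 1 of the 32 genes, Prkar2b, where 14.7% of all tested genes did so.

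**Figure D1:**
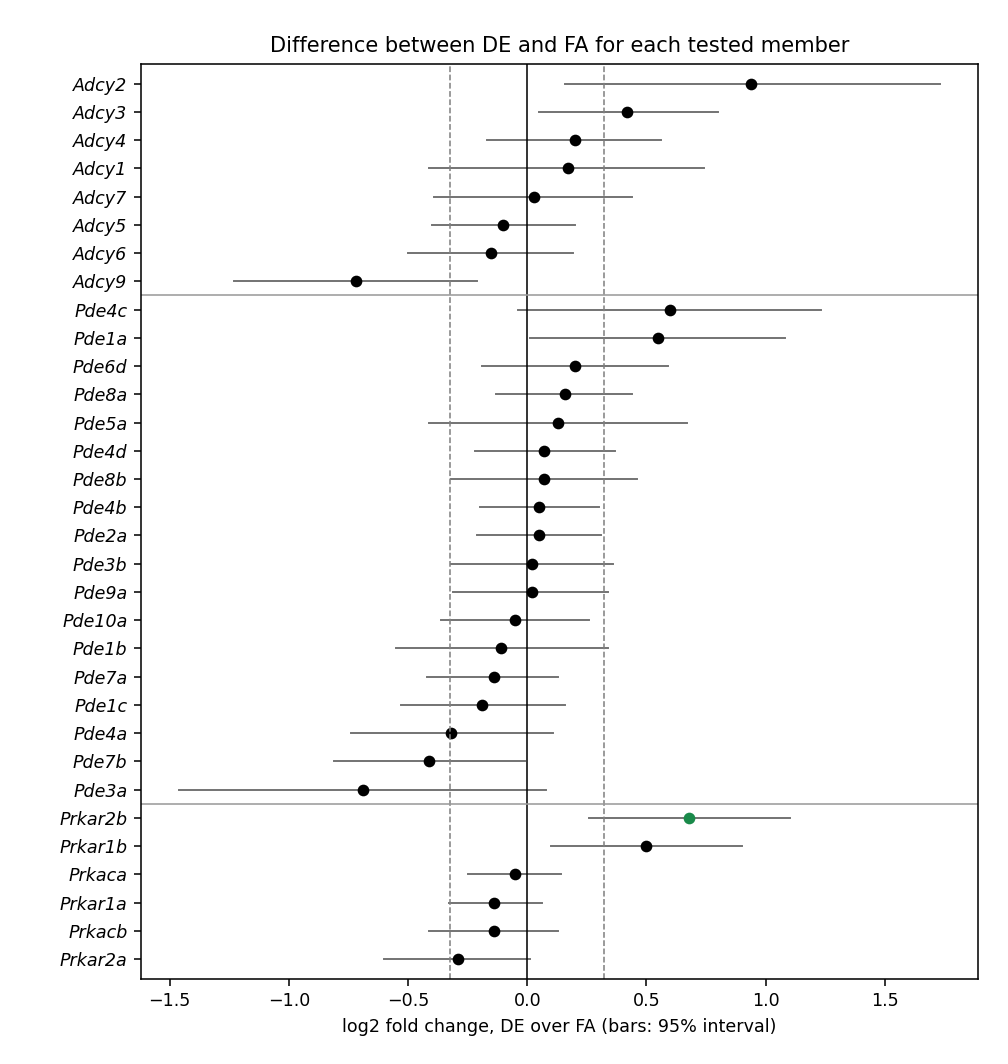
Log2 fold change of DE over FA for the 32 tested genes (points) with 95% intervals (bars), grouped as adenylate cyclases, phosphodiesterases and PKA subunits from top to bottom. Dashed lines mark a 25% difference, the green point is Prkar2b, whose libraries do not overlap between groups, and no gene passed an adjusted p of 0.05, the lowest being 0.0593.

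The adenylate cyclases were dominated by the pair of isoforms typical of heart muscle. Adcy6 and Adcy5, both inhibited by calcium and by inhibitory G protein, were the highest per length, with means of 54.3 ± 12.2 and 18.2 ± 3.24 CPM per kb of exon in FA (SD, n = 4). Adcy6 made up 63.7% ± 4.501 of the summed cyclase level per kb in FA and 62.2% ± 3.69 in DE, and Adcy5 made up 21.6% ± 1.13 and 21.7% ± 2.67 (SD, n = 4 each). Adcy4, a cyclase stimulated by G protein beta-gamma subunits, followed with 9.03% ± 3.16 in FA and 10.7% ± 3.02 in DE. The other cyclases shared the small remainder in both groups.

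Adcy6 read 415, 418, 394 and 245 CPM in FA and 374, 301, 318 and 332 CPM in DE (replicates in the order given above). FA replicate 6 stood below all 4 DE libraries, and the other 3 FA libraries stood above them. The log2 fold change was -0.15 (SE 0.16, 95% interval -0.50 to 0.19, adjusted p = 0.570), and it was -0.31 without FA replicate 6 (adjusted p = 0.105, the lowest over the alternatives tried, which reached 1). Adcy5 was also lowest in FA replicate 6, at 98.0 CPM, with the other 7 libraries between 112 and 149 CPM and a log2 fold change of -0.10 (SE 0.14, interval -0.40 to 0.20). About 8.9% of the exonic bases of Adcy6 overlap an antisense gene, and the strand setting of the counting is not stated.

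Adcy9, a widely expressed cyclase that responds poorly to forskolin, came nearest to a call among the cyclases. Its gene lies on the minus strand of chromosome 16, from 4284886 to 4437236 (GRCm38). It read 13.8, 8.17, 15.2 and 10.3 CPM in FA and 9.29, 5.91, 5.09 and 8.74 CPM in DE. FA replicate 3 lay below DE replicates 1 and 7, and the 2 lowest values were DE replicates 5 and 3. The level in DE was 0.608 of that in FA (interval 0.426 to 0.867), a log2 fold change of -0.72 (SE 0.23, adjusted p = 0.0903). The adjusted p was 0.0353 by DESeq2, 0.0391 by the likelihood ratio test and 0.049 with offsets for transcript length. With the name number as a term the log2 fold change was -0.39 (adjusted p = 0.381), and over all alternatives the adjusted p ran from 0.0353 to 0.417. Number 12 occurs in DE alone, so with that term only DE replicates 1 and 7 are compared with FA, here and below.

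Adcy2 and Adcy3 had higher means in DE at low levels. Adcy2, stimulated by beta-gamma subunits and best known from brain, read 0.8289, 0.448, 0.564 and 0.639 CPM in FA and 2.18, 0.947, 0.823 and 0.959 CPM in DE. One DE library, replicate 1, stood far above every other, and the rest of the groups overlapped only where DE replicate 5 fell just below FA replicate 2. The log2 fold change of 0.94 (SE 0.36, adjusted p = 0.134) fell to 0.49 without DE replicate 1, and was 1.34 with the name number as a term (adjusted p = 0.0616, in a range of 0.0616 to 0.438). DE replicate 1 was also the library with the highest fibroblast marker sum, 6177 CPM, and whether these are linked was not tested.

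Adcy3, a calcium-calmodulin regulated cyclase, read 4.04, 2.99, 4.06 and 3.79 CPM in FA and 5.90, 5.48, 3.94 and 4.69 CPM in DE. DE replicate 5 lay within the FA range and the other 3 above it. The log2 fold change was 0.42 (SE 0.17, adjusted p = 0.151). Antisense exons of Cenpo cover 22.1% of the exonic bases of Adcy3, so part of this count may belong to Cenpo if reads were counted without strand.

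The remaining cyclases showed log2 fold changes of 0.20 (Adcy4), 0.17 (Adcy1, a calcium-calmodulin stimulated form) and 0.03 (Adcy7, stimulated by beta-gamma subunits), with adjusted p-values of 0.478, 0.720 and 0.946. Adcy7 had a narrow range in FA, 9.27 to 10.8 CPM, and a wide one in DE, where replicate 1 read 14.9 CPM and replicates 3 and 5 read 7.83 and 8.26 CPM. Adcy8, a calcium-calmodulin stimulated cyclase, had 6 counts over all 8 libraries and Adcy10, the soluble bicarbonate-sensitive cyclase, had 37, and neither entered the test.

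**Figure D2:**
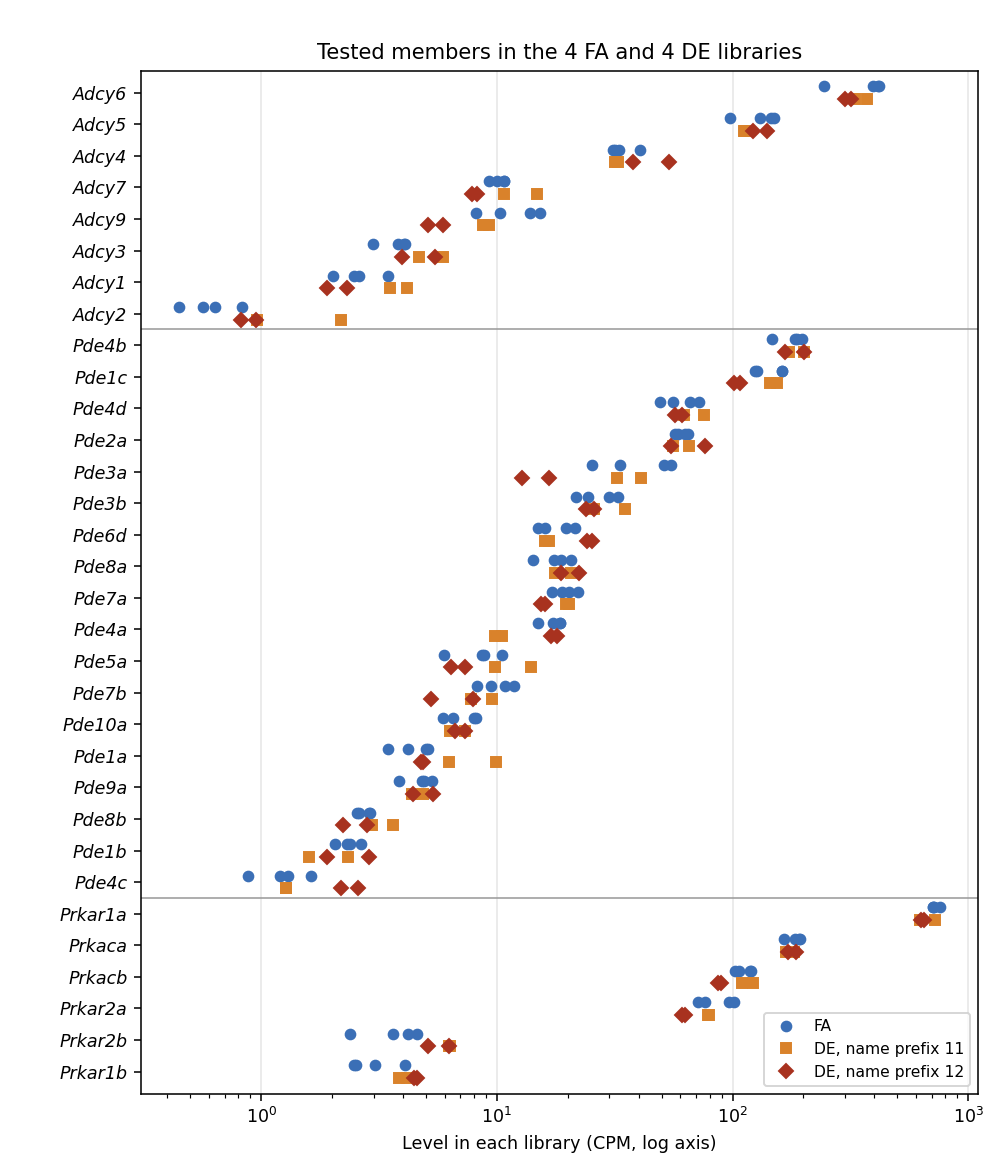
Level of each tested gene in each library in CPM on a log axis, with adenylate cyclases, phosphodiesterases and PKA subunits from top to bottom and FA as circles, DE with name number 11 as squares and DE with name number 12 as diamonds. Groups overlap in every row except that of Prkar2b. The diamonds lie below the squares in 16 rows, Pde3a and Adcy9 among them, and above the squares in 6, Pde4a among them.

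Among the phosphodiesterases, those that hydrolyse cyclic AMP alone made up the largest class per length, with a summed level of 32.7 ± 3.65 CPM per kb in FA and 33.3 ± 2.60 in DE (SD, n = 4 each). Enzymes acting on both nucleotides summed to 25.1 ± 2.78 in FA and 23.7 ± 2.95 in DE. Pde4b led with 24.8% ± 1.80 of the summed phosphodiesterase level per kb in FA and 25.5% ± 0.932 in DE. Pde2a, whose hydrolysis of cyclic AMP is stimulated by cyclic GMP, followed with 14.6% and 14.8%, and then Pde6d with 12.3% ± 2.98 and 13.8% ± 3.65. Pde6d is counted here because of its name, since its protein is a carrier of prenylated proteins rather than an enzyme. The counts of Pde2a may be shared, because an annotated read-through gene on the same strand covers 64.3% of its exonic bases.

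**Figure D3:**
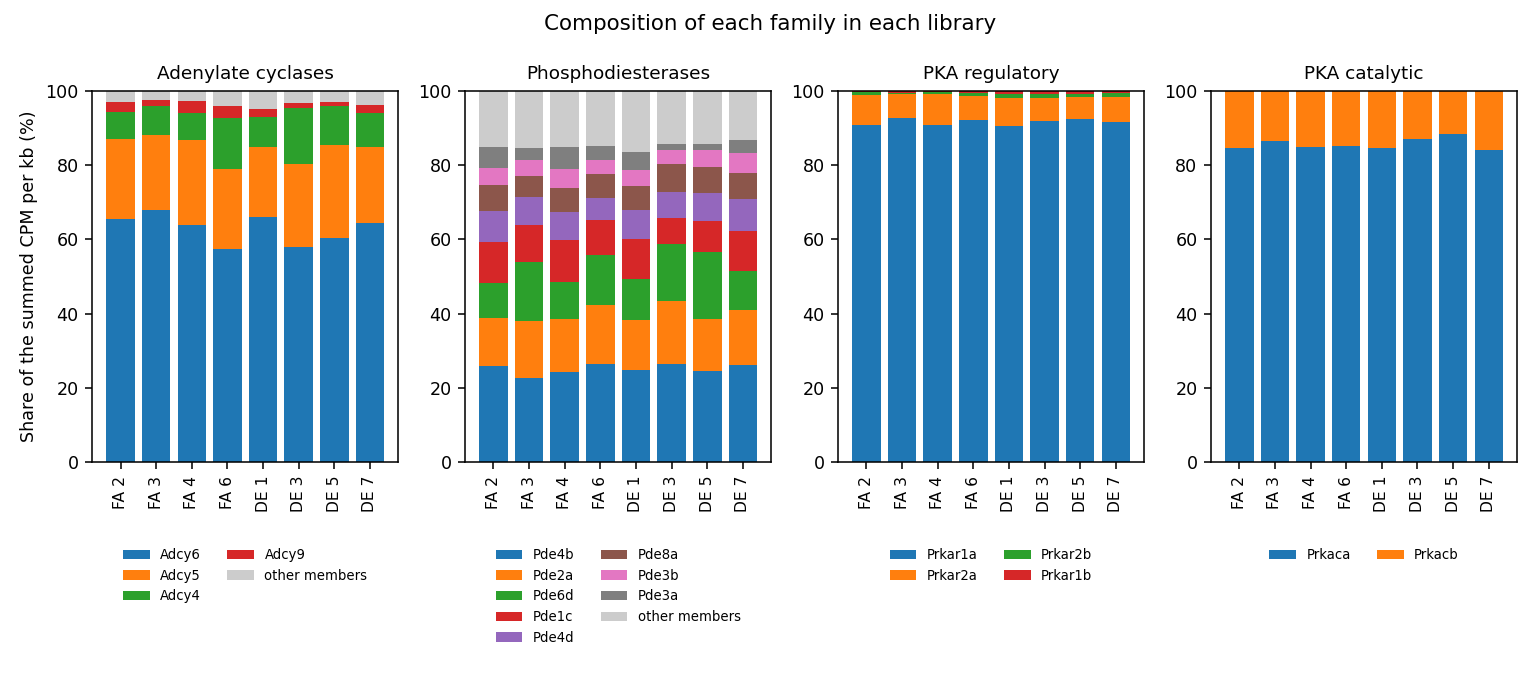
Share of the summed CPM per kb of exon held by each gene within the adenylate cyclases, phosphodiesterases, PKA regulatory subunits and PKA catalytic subunits, with 1 bar for each FA and DE library. Adcy6, Pde4b, Prkar1a and Prkaca are the leading genes of their family in all 8 libraries, and their mean shares in FA and DE differ by less than 2 percentage points.

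The cyclic AMP specific enzymes of the PDE4, PDE7 and PDE8 groups had log2 fold changes of either sign, 5 of 8 above 0. Pde4b and Pde4d, the PDE4 forms that limit the beta-adrenergic response in cardiomyocytes, had log2 fold changes of 0.05 (SE 0.11, interval -0.20 to 0.30) and 0.07 (SE 0.13, interval -0.22 to 0.37). The interval for Pde4b lay inside the 25% threshold in both directions. Pde8a, a form with high affinity for cyclic AMP, read 14.2 to 20.6 CPM in FA and 17.7 to 22.3 CPM in DE, a log2 fold change of 0.16 (adjusted p = 0.467). Pde7a and Pde8b gave -0.14 and 0.07, with adjusted p-values of 0.503 and 0.824.

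Pde7b, a cyclic AMP specific enzyme of low level, read 11.8, 8.27, 10.8 and 9.44 CPM in FA and 9.53, 7.92, 5.26 and 7.78 CPM in DE. DE replicate 1 lay inside the FA range and the other 3 below it, with a log2 fold change of -0.41 (SE 0.18, adjusted p = 0.188). Pde4c, little expressed in heart, read 0.882, 1.20, 1.30 and 1.62 CPM in FA and 1.27, 2.58, 2.17 and 1.28 CPM in DE. Its 2 highest values came from DE replicates 3 and 5, and the log2 fold change was 0.60 (SE 0.29, adjusted p = 0.219). With the name number as a term it was 0.06 (adjusted p = 0.939, in a range of 0.115 to 0.954 over the alternatives).

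Pde4a divided the DE libraries. It read 18.6, 17.2, 18.6 and 15.0 CPM in FA, and 10.47, 17.0, 18.01 and 9.86 CPM in DE. DE replicates 1 and 7 lay below every FA library, while replicates 3 and 5, those with the name number 12, lay inside the FA range. Over all libraries the log2 fold change was -0.32 (SE 0.19, adjusted p = 0.323). Among the 6 libraries with the number 11 it was -0.77 (adjusted p = 0.0223), and with the number as a term -0.77 (adjusted p = 0.0109), in a range of 0.0109 to 0.974 over all alternatives. Both settings compare DE replicates 1 and 7 with FA, so they are not separate evidence.

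Of the tested enzymes acting on both nucleotides, Pde3a had the largest log2 fold change and also the largest SE of it. Pde3a, the cyclic GMP inhibited enzyme that acts beside the calcium pump of the sarcoplasmic reticulum, read 51.4, 25.2, 55.0 and 33.4 CPM in FA and 41.0, 16.7, 12.7 and 32.3 CPM in DE. The 2 lowest values were DE replicates 5 and 3 and the 2 highest FA replicates 4 and 2. The log2 fold change was -0.69 (SE 0.35, interval -1.46 to 0.08, adjusted p = 0.237). Genes with more than 8 kb of exon, Pde3a with 12.7 kb among them, ran high in FA replicates 2 and 4 (median deviation 0.20 and 0.18 on the log2 scale) and low in DE replicates 3 and 5 (-0.19 and -0.22). With offsets that remove this trend the log2 fold change of Pde3a was -0.54 (adjusted p = 0.177, in a range of 0.0793 to 0.81 over the alternatives). With the name number as a term it was -0.17 (adjusted p = 0.799).

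Pde1a, a calcium-calmodulin activated enzyme, read 4.20, 3.44, 5.08 and 5.02 CPM in FA and 9.96, 4.76, 4.84 and 6.29 CPM in DE. DE replicates 3 and 5 lay inside the FA range and replicates 7 and 1 above it, and the log2 fold change was 0.55 (SE 0.24, adjusted p = 0.188). It was 0.25 without DE replicate 1 and 0.89 with the name number as a term (adjusted p = 0.0421, in a range of 0.0421 to 0.65). Pde1c, the most abundant of the calcium-calmodulin activated forms, spanned 125 to 163 CPM in FA and 101 to 155 CPM in DE, a log2 fold change of -0.19 (SE 0.16, adjusted p = 0.479).

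The other dual-specificity enzymes had log2 fold changes nearer to 0. They were 0.05 for Pde2a (interval -0.21 to 0.31), 0.02 for Pde3b, the second cyclic GMP inhibited form (interval -0.32 to 0.36), -0.05 for Pde10a (interval -0.36 to 0.26) and -0.11 for Pde1b (interval -0.55 to 0.34). Pde11a had 7 counts in all and was not tested.

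Genes of the cyclic GMP specific class that passed the filter were Pde5a, Pde9a and Pde6d. Pde5a, the target of sildenafil, gave a log2 fold change of 0.13 (interval -0.41 to 0.67), its highest value again being DE replicate 1 at 13.9 CPM. Pde9a gave 0.02 (interval -0.31 to 0.34). Pde6d read 14.9, 21.4, 16.0 and 19.7 CPM in FA and 16.0, 24.2, 25.4 and 16.6 CPM in DE, with DE replicates 3 and 5 above all others and a log2 fold change of 0.20 (adjusted p = 0.510). The photoreceptor genes Pde6a, Pde6b, Pde6c, Pde6g and Pde6h had 77, 6, 2, 22 and 16 counts over the 8 libraries and were not tested.

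Per length, the 2 most abundant genes of the set were PKA subunits. Prkar1a, the type I-alpha regulatory subunit, stood first with 168 ± 5.22 CPM per kb in FA and 152 ± 10.7 in DE, followed by Prkaca, the C-alpha catalytic subunit, with 74.0 ± 5.18 and 71.2 ± 3.13 (SD, n = 4 each). Prkar1a held 91.6% ± 1.01 of the summed regulatory level in FA and 91.7% ± 0.852 in DE. Prkaca held 85.3% ± 0.837 of the summed catalytic level in FA and 86.01% ± 2.06 in DE. The ratio of summed regulatory to summed catalytic level per kb was 2.12 ± 0.163 in FA and 2.00 ± 0.0774 in DE.

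Prkar1a read 757, 709, 712 and 717 CPM in FA and 626, 633, 648 and 727 CPM in DE. DE replicate 7 lay inside the FA range and the other 3 below it. The log2 fold change was -0.14 (SE 0.09, interval -0.33 to 0.06, adjusted p = 0.353). Prkaca and Prkacb, the catalytic subunits, gave -0.05 (interval -0.25 to 0.14) and -0.14 (interval -0.41 to 0.13). Prkar2a, the type II-alpha regulatory subunit that docks on anchoring proteins, read 101, 71.7, 96.2 and 76.2 CPM in FA and 79.0, 62.7, 61.1 and 79.2 CPM in DE. The 2 lowest values were DE replicates 5 and 3, and the log2 fold change was -0.29 (SE 0.14, adjusted p = 0.213).

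Among the genes with a promoter window, Prkar1a was the 1 gene of the set to hold the full cyclic AMP response element, the palindrome TGACGTCA that CREB binds. Windows from 250 bases before to 50 after an annotated start (RefSeq, GRCm38.p6, searched on both strands) were at hand for 31 of the 40 genes. The full element was found in 1 of the 31 (3.23%) and in 549 of 27025 genes with a window (2.03%), and among tested genes in 1 of 27 of the set (3.7%) and in 3.4% overall. The shorter site TGACG, read as CGTCA on the other strand and contained in the full element, was found in 14 of the 31 (45.2%) and in 23.0% of all genes with a window. A gene counted if any of its windows held the letters, and the set had more windows per gene, 68 for 31 genes against 32851 for 27025, so the shares are not on an equal footing. Among tested genes this site was found in 13 of 27 of the set (48.1%) and in 33.8% overall. The element of Prkar1a, shown because this is the most abundant gene of the set, begins 49 bases before 1 of its 6 annotated starts and after others. It is shown with 11 flanking bases on each side, a stretch of 30 bases at chr11:109650889-109650918 on the plus strand, with the element in capitals:
Prkar1a: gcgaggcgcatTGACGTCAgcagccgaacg

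The less abundant regulatory subunits Prkar2b and Prkar1b both had higher means in DE. Prkar2b, the type II-beta subunit best known from fat and brain, lies on the minus strand of chromosome 12, from 31958450 to 32061648 (GRCm38). It read 4.57, 2.39, 3.61 and 4.18 CPM in FA and 6.32, 6.25, 5.09 and 6.29 CPM in DE, from 48 to 171 counts per FA library and 118 to 218 per DE library. Every DE library lay above every FA library. The level in DE was 1.61 times that in FA (interval 1.20 to 2.15), a log2 fold change of 0.68 (SE 0.19), and the adjusted p of 0.0593 missed the threshold. It was 0.0144 by DESeq2, 0.0162 by the likelihood ratio test and 0.0426 with library totals alone, in a range of 0.0144 to 0.301 over all alternatives. Prkar2b made up 0.550% ± 0.128 of the summed regulatory level per kb in FA and 0.989% ± 0.109 in DE (SD, n = 4 each).

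Prkar1b, the type I-beta subunit best known from neurons, read 2.51, 3.04, 2.48 and 4.08 CPM in FA and 4.15, 4.59, 4.44 and 3.84 CPM in DE. FA replicate 6 lay among the DE libraries and the other 3 below them. The log2 fold change was 0.50 (SE 0.18, adjusted p = 0.117), and without FA replicate 6 it was 0.67 (adjusted p = 0.0449, in a range of 0.0449 to 0.576). About 9.0% of the exonic bases of Prkar1b overlap another gene on the same strand, so part of its counts may be shared. The 7 marker genes for neurons and glia, 4 of them tested, summed to 7.13 to 9.07 CPM in FA and 6.66 to 8.53 CPM in DE. The groups overlapped, although Tubb3 among them was called higher in DE.

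**Figure D4:**
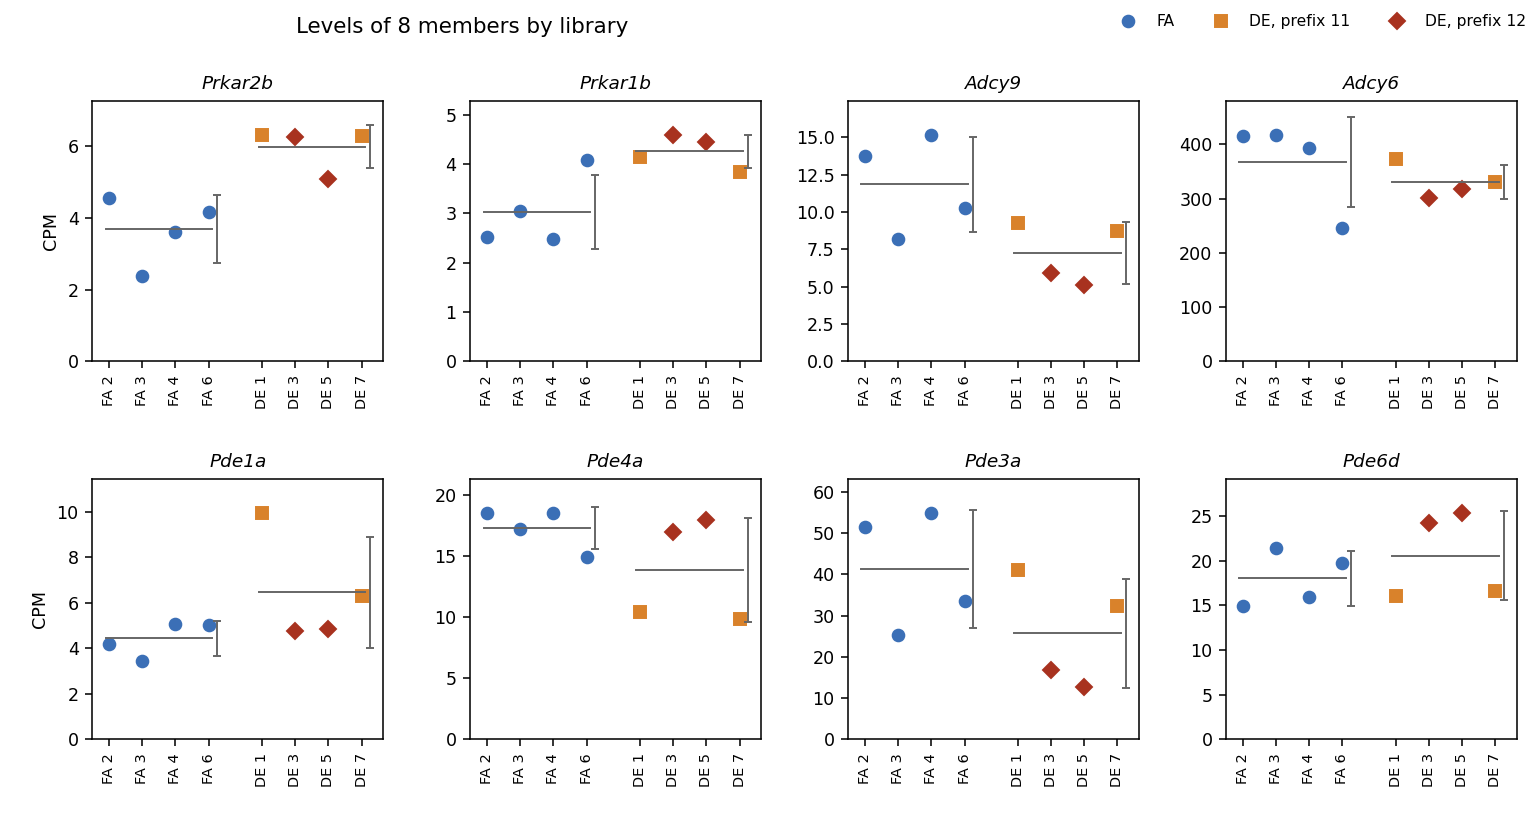
CPM of 8 genes in each library (FA as circles, DE with name number 11 as squares, DE with name number 12 as diamonds), with the group mean as a line and the SD as a bar. Prkar2b separates the groups, Adcy6 has 1 low FA library at 245 CPM, and Pde1a has 1 high DE library at 9.96 CPM. In each of the 8 genes the squares and the diamonds do not overlap.

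Within DE, the libraries with the name numbers 12 and 11 often lay apart, in these genes as in others. Both number 12 libraries lay below both number 11 libraries in 16 of the 32 genes and above them in 6, and overlapped them in 10. Over all tested genes the libraries of the 2 numbers did not overlap in 60.2%, with number 12 lower in 30.4% and higher in 29.9%. In a model of 3 groups, DE number 12 against DE number 11 called 309 genes in all (2.06%) and 1 of the 32, Pde4a, with a log2 fold change of 0.78 (adjusted p = 0.0361). DE number 11 against FA called 448 genes (2.99%) and 2 of the 32, Pde1a (0.89, adjusted p = 0.0421) and Pde4a (-0.77, adjusted p = 0.0109). This is the contrast that remains with the name number as a term, so these are the same calls. DE number 12 against FA called 3499 genes (23.4%) and 8 of the 32. These were Adcy9 (-1.11), Pde1c (-0.47), Pde3a (-1.49), Pde7b (-0.62), Prkacb (-0.35) and Prkar2a (-0.48), lower in DE, and Pde4c (0.96) and Pde6d (0.47), higher in DE. That share, 8 of 32, is close to the share of all genes. No FA library has the number 12, so in this last contrast the number and the exposure cannot be told apart. In Prkar2b the log2 fold changes from FA were 0.76 for number 11 and 0.60 for number 12, with adjusted p-values of 0.094 and 0.0651.

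Other genes of the pathway were taken in 7 lists of 80 genes, of which 71 were tested and 6 were called, 5 lower and 1 higher in DE, where 5.8% of all tested genes were called. The receptors and G protein alpha subunits upstream of the cyclases had 0 of 13 called by the quasi-likelihood test, by DESeq2, by the likelihood ratio test and by limma-voom. In that list 5 of 13 had an unadjusted p under 0.05, against 25.6% of all tested genes. The log2 fold change was above 0 in 11 of the 13, with a median of 0.21. The smallest p in that list belonged to Gnai2, an inhibitory alpha subunit, which read 277 to 326 CPM in FA and 327 to 436 CPM in DE, a log2 fold change of 0.32 (SE 0.11, adjusted p = 0.107). The lists of PKA inhibitors and other effectors, of the CREB family with its coactivators, and of cyclic GMP synthesis with protein kinase G had 0 of 8, 0 of 8 and 0 of 6 called by the quasi-likelihood test, with 1, 3 and 1 genes at an unadjusted p under 0.05. In the CREB list 7 of 8 genes had a log2 fold change below 0, with a median of -0.33. The medians of the effector and cyclic GMP lists were -0.05 and -0.06. DESeq2 and the likelihood ratio test each called 1 gene of the CREB list and 1 of the cyclic GMP list, and limma-voom called 0 in all 3 lists. Their smallest p-values belonged to Rapgef3, the exchange factor Epac1 (log2 fold change 0.37, adjusted p = 0.174), Creb1 itself (-0.45, adjusted p = 0.0713) and Prkg1, the cyclic GMP dependent kinase (-0.72, adjusted p = 0.0625).

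A-kinase anchoring proteins hold PKA at its sites of action, and 2 of 16 were called, both lower in DE. Over all tested genes 2.22% were called lower. Akap1, which anchors PKA at the outer mitochondrial membrane, read 192, 183, 174 and 173 CPM in FA and 106, 119, 134 and 92.9 CPM in DE, without overlap. Its log2 fold change was -0.67 (SE 0.12, adjusted p = 0.0101). Akap6, which anchors PKA at the nuclear envelope and sarcoplasmic reticulum, read 283, 193, 295 and 222 CPM in FA and 186, 117, 149 and 177 CPM in DE, a log2 fold change of -0.66 (SE 0.17, adjusted p = 0.0458). The call for Akap6 was lost in 10 of 20 alternatives, with a log2 fold change of -0.46 (adjusted p = 0.215) among the libraries with the number 11, in a range of 0.00658 to 0.261. With length offsets its log2 fold change was -0.45 (adjusted p = 0.0145). In that list 14 of 16 genes had a log2 fold change below 0, with a median of -0.28, and calls ran from 1 to 5 with 1 library left out. Long genes ran high in FA replicates 2 and 4 and low in DE replicates 3 and 5, as given for Pde3a, and the part of this trend in the list's median was not tested.

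Of the 11 cardiac substrates of PKA, 8 had a log2 fold change below 0, with a median of -0.38. Over all tested genes 5.8% were called in either direction and 2.22% were called lower. The substrates had 3 of 11 called, all lower in DE. That count was 1 to 3 with any 1 library left out, and it was 1 without FA replicate 2, FA replicate 3, DE replicate 3 or DE replicate 5, with number 11 libraries only, and with scaling by library totals alone. Lipe, hormone-sensitive lipase, which PKA activates to release fatty acids, read 20.2, 21.9, 18.1 and 20.3 CPM in FA and 9.99, 9.58, 8.13 and 10.2 CPM in DE. Its log2 fold change of -1.09 (SE 0.11, adjusted p = 0.000552) stayed called in all 20 alternatives. Pln, phospholamban, the brake on the calcium pump that PKA releases, fell by 0.38 on the log2 scale (adjusted p = 0.036), and Rrad, a small GTPase that restrains the L-type calcium channel, fell by 0.68 (adjusted p = 0.037). These calls were lost in 11 and 9 of 20 alternatives. Among 9 target genes of CREB, Per1, a clock gene, was called, with 64.5 to 104 CPM in FA against 154 to 183 CPM in DE and a log2 fold change of 0.84 (SE 0.15, adjusted p = 0.0103), while the median of that list was 0.00.

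**Figure D5:**
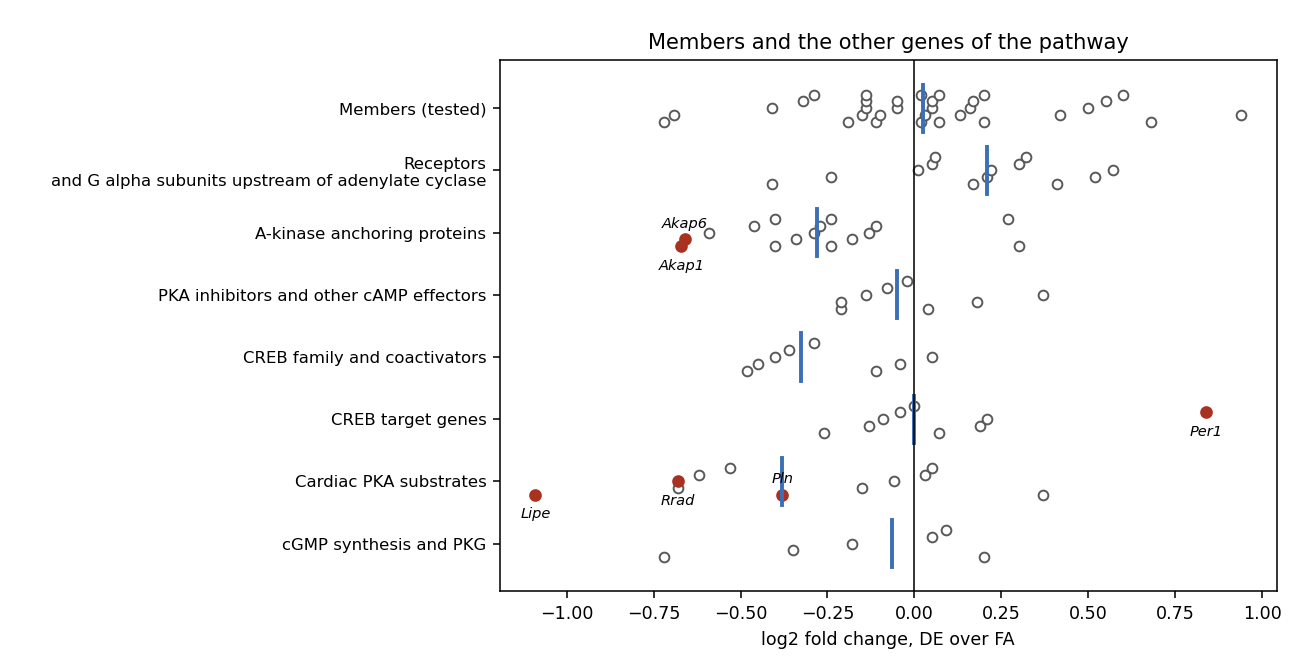
Log2 fold change of DE over FA for the 32 tested genes (top row) and for the tested genes of 7 pathway lists, with filled points for genes called and a vertical bar at each median. The top row holds no filled point, and the filled points below it are Akap1, Akap6, Per1, Lipe, Rrad and Pln.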

How the data were processed

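RNA from NCMs of 8 male neonates (4 FA, 4 DE) had been sequenced after poly-A selection with a stranded kit. The study's methods state fewer libraries per group than the table holds, and all 8 were used. The authors aligned reads with Tophat to mm10, marked duplicates with Picard without removing them, recalibrated with GATK and counted with featureCounts, and deposited raw counts per Entrez gene. The counting annotation and strand setting are not given in the sources used here. Counts with duplicates kept are not independent molecules. No pair of libraries within a group agreed within sampling noise (chi-square per gene 4.26 or more).

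Entrez IDs were matched to symbols through RefSeq genes of GRCm38.p6, with 25275 of 27179 matched. Genes were filtered with filterByExpr (10 counts), scaled by TMM and tested by edgeR 4.0.16 (glmQLFit, glmQLFTest, exposure as the only term) in R 4.3.3, with Benjamini-Hochberg adjustment over the 14966 genes tested. Levels per length divide CPM by the union of exons in GENCODE (GRCm38), so isoforms with few exons are understated. Intervals are 95%. Tests were run on simulated data first. Other settings tried were limma-voom (limma 3.58.1), DESeq2 1.42.0, a likelihood ratio test in edgeR, the 25% difference built into the test, other scalings and filters, the name number as a term, number 11 libraries alone, each library left out in turn and, chosen after seeing the data, offsets for transcript length and the 3-group model. The number as a term and number 11 libraries alone both compare DE replicates 1 and 7 with FA. The genes and the lists were chosen with earlier results of these data known, and the lists were written from general knowledge. Every tested gene of the set is named. Of the pathway lists the called genes are named, or the gene with the smallest p where none was called.

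The other marker lists had the following ranges of summed CPM over the libraries of FA and of DE. Atrial cardiomyocytes gave 168 to 340 and 243 to 361, endothelial cells 1184 to 1616 and 1352 to 1962, smooth muscle and pericytes 1608 to 2181 and 1172 to 1579, leukocytes 12.4 to 18.7 and 15.8 to 26.7, erythroid cells 759 to 1880 and 1209 to 2022, epicardium 135 to 160 and 125 to 142, adipocytes 14.5 to 19.6 and 8.50 to 11.1 (mostly from Cidea, which was called lower in DE, then Ucp1, with 13 counts or fewer in all for Adipoq, Plin1 and Cidec), and skeletal muscle 1034 to 1380 and 1115 to 1444, with Myod1 at 0 in every library. Most of the smooth muscle and pericyte sum was Acta2 (mean 1151 CPM in FA and 746 CPM in DE). Of the 9 markers in that list 5 were higher in DE and 4 lower, and none was called. Most of the skeletal muscle sum was Ckm (mean 1157 CPM in FA and 1222 CPM in DE). All 6 erythroid markers were higher in DE, and Slc4a1 was called (log2 fold change 0.95, adjusted p = 0.0422).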

Additional observations from a re-analysis of the deposited data

Results flagged for a closer look

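Of the 64 sets of 4 libraries examined (FA and DE for each of the 32 tested genes), 3 held a library far from the other 3 by Dixon's criterion, which chance alone flags in about 1 of 20 sets. Adcy2 read 2.18 CPM in DE replicate 1 against 0.823 to 0.959 CPM in the other DE libraries. Adcy6 read 245 CPM in FA replicate 6 against 394 to 418 CPM in the other FA libraries. Prkar2b read 5.09 CPM in DE replicate 5 against 6.25 to 6.32 CPM in the other DE libraries, still above all 4 FA libraries. DE replicate 1 was also the highest of the 8 libraries for Adcy1, Adcy3, Adcy7, Pde1a, Pde5a and Prkar2b, 7 genes with Adcy2, where DE replicate 3 was the highest for 8 genes and FA replicate 2 for 6.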

How the results depend on the processing

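The number of genes called in all, 868, was 1633 with DESeq2, 1603 with the likelihood ratio test, 114 with the 25% difference built into the test, 448 with the name number as a term, 260 with number 11 libraries only, 1310 with length offsets and 237 (without FA replicate 4) to 1168 (without DE replicate 1) with 1 library left out. It was also 249 without FA replicate 2, 433 without FA replicate 3, 268 without DE replicate 3 and 526 without DE replicate 5. With library totals alone 1020 genes were called, of which 21.3% were lower in DE, against 38.2%. The count of called genes of the set, 0, became 2 with DESeq2 and with the likelihood ratio test (1 higher, 1 lower), 2 with the name number as a term (1 higher, 1 lower), 1 with number 11 libraries only (1 lower), 1 with library totals alone (1 higher), 1 with length offsets (1 lower) and 0 to 1 with 1 library left out (1 higher, without FA replicate 6). These 10 calls fell on 5 of the 32 genes. Those with the name number as a term and with number 11 libraries only come from the same contrast, DE number 11 against FA, and both include Pde4a. The 6 calls in the pathway lists became 11 with DESeq2, 10 with the likelihood ratio test, 1 with the 25% difference built in, 3 with library totals alone, 3 with number 11 libraries only, 10 with length offsets and 3 to 9 with 1 library left out (3 without FA replicate 2, DE replicate 3 or DE replicate 5). Other than for calls that the 25% difference removed by its construction, the cause was not tested.

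Signs turned in 36 of 639 recomputed log2 fold changes and in 16 of the 32 genes, each time with an adjusted p above the threshold on both sides. With the name number as a term and with number 11 libraries only, the values were -0.08 and -0.08 for Adcy4, 0.05 and 0.05 for Pde1c, -0.01 and -0.01 for Pde2a, -0.14 and -0.15 for Pde6d, 0.02 and 0.02 for Pde7a, -0.02 and -0.03 for Pde9a, and 0.05 and 0.04 for Prkacb. Length offsets gave 0.16 for Pde10a, 0.06 for Pde1c and -0.04 for Pde9a, library totals alone 0.02 for Pde10a and 0.02 for Prkaca, and limma-voom -0.04 for Adcy7. With 1 library left out, values ran from -0.06 to 0.33 for Adcy1, -0.20 to 0.14 for Adcy7, -0.13 to 0.02 for Pde10a, -0.06 to 0.11 for Pde2a, -0.12 to 0.11 for Pde3b, -0.03 to 0.10 for Pde4b, -0.02 to 0.16 for Pde4d, -0.14 to 0.28 for Pde5a, -0.05 to 0.19 for Pde8b and -0.08 to 0.08 for Pde9a.

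No paired analysis was possible because the groups share only 1 replicate number. Counts were at most 72 per library for Adcy2, 90 for Pde4c and 218 for Prkar2b, and intervals cover 8 pups from an unstated number of litters. The name number 12 occurs in DE alone, so its contrast with FA holds both. The calls for Pde4a and Pde1a rest on DE replicates 1 and 7.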
